A study of Mus musculus with 16 samples.

Results

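The 81 genes described here encode the nuclear parts of the mitochondrial oxidative phosphorylation chain and were read in astrocytes that had been sorted from 2 regions of young mice, thalamus and spinal cord. They were taken by symbol: the Nduf subunit families a, b, c, s and v of complex I, Sdh genes of complex II, Uqcr genes and Cyc1 of complex III, Cox4 to Cox8 genes of complex IV and Atp5 genes of complex V, with Ndufaf assembly factors left out. The members were chosen by level as well: a gene was kept where its FPKM (fragments per length of transcript and per depth of library) reached 1 in at least 4 of the 16 libraries. Of 90 rows with such a symbol among 39171 features, 81 passed: 36 of complex I, 6 of complex II, 9 of complex III, 13 of complex IV and 17 of complex V. Since FPKM chose the members, their being expressed is not a finding. The rule also took 4 genes that are not structural subunits, namely the complex II assembly factors Sdhaf1 and Sdhaf2, and Atp5s and Atp5sl, and it placed Ndufa4 in complex I by symbol although its protein is now counted with complex IV.

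Every mouse was C57BL/6 at postnatal day 15 and carried 1 copy of an mCherry reporter of the cytokine gene Il33 together with a GFP reporter of the astrocyte gene Aldh1l1. From each of 4 mice, reporter-positive and reporter-negative astrocytes were isolated by flow sorting from both regions, which gave 4 groups of 4 libraries: thalamus negative, thalamus positive, spinal cord negative and spinal cord positive. All 4 groups shared both reporters, and no mouse without a reporter is among them, so each negative group is a gate within the same animals and not a separate control strain. The comparisons asked which transcripts differ between reporter-positive and reporter-negative astrocytes and between the regions.

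Complexes I to IV pass electrons from NADH and succinate to oxygen, complexes I, III and IV pump protons across the inner mitochondrial membrane as they do so, and complex V uses the proton gradient to make ATP. Complexes I, III, IV and V are assembled from proteins of nuclear and of mitochondrial genes, whereas complex II is encoded in the nucleus alone. Astrocytes are known for a high glycolytic rate, and they also hold respiring mitochondria that support glutamate uptake and fatty acid oxidation.

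The libraries differed in ways that bear on these genes. The share of mitochondrial transcripts in the FPKM of a library ran from 43.7% to 73.9%, with the highest shares in the thalamus negative and spinal cord negative libraries of mouse 1. The 10 astrocyte markers summed to 6020 to 8230 FPKM in thalamus negative and 6541 to 8020 in thalamus positive libraries. In the spinal cord they summed to 9249 to 11133 in negative and 14185 to 15652 in positive libraries. Astrocyte markers were thus present in all 4 groups, which does not show how pure a group was. The 12 oligodendrocyte markers summed to 3402 to 3583 FPKM in spinal cord negative and 452 to 956 in thalamus negative libraries, against 158 to 169 and 77.8 to 114 in the positive ones. The 10 ependymal markers summed to 338 to 623 FPKM in thalamus negative, 111 to 161 in spinal cord negative and at most 9.08 in positive libraries. The 10 endothelial and mural markers summed to 71.4 to 111 FPKM in thalamus negative and 53.4 to 118 in spinal cord negative libraries. In positive ones they gave at most 15.7. The 10 neuron markers gave 35.8 to 101 and 39.3 to 77.8 in these negative groups, against 12.0 to 18.4 and 21.9 to 30.7. Microglia markers overlapped between the gates of each region. The negative gates thus held RNA of other cell types. In such bulk libraries fewer cells of a type and less RNA per cell cannot be told apart. Il33 overlapped between the gates in both regions, and Aldh1l1 lay at 14.7 to 38.3 FPKM throughout.

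The members were abundant transcripts. Their mean over the 16 libraries had a median of 54.3 FPKM, against 6.33 FPKM for all 16340 features that passed the same level. Of the 81, 75 reached 1 FPKM in every library, 2 in 15 and 4 in 13. Atp5sl, Cox6b2, Cox7a1 and Sdhaf1 were the 4 just inside the rule, each at 1 FPKM or more in 13 libraries. Just outside it lay Cox7b2 with 3 such libraries, Cox4i2, Cox6a2 and Cox8b with 2, Ndufa4l2 with 1 and a second row of Cox5b with 0. The other 3 rows left out, Cox8c and second rows of Atp5g2 and Atp5l, were listed at 0 in all libraries.

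Isoforms of the same subunit were very unequal. Cox4i1, the general form of the complex IV subunit 4, had a mean of 190.2 FPKM, while its hypoxia- and lung-linked isoform Cox4i2 had 0.885. Cox6a1 and Cox8a, general forms found in most tissues, had means of 249 and 199.6 FPKM, while Cox6a2 and Cox8b, forms typical of heart and skeletal muscle, had 0.737 and 0.505. Cox7a2 had 52.4 FPKM, and its muscle-type counterpart Cox7a1 had 5.77. In each of these pairs the general isoform was the more abundant one. Of the 3 genes for the identical c-ring protein of ATP synthase, Atp5g3 had 232 FPKM, Atp5g1 16.8 and Atp5g2 3.84.

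Atp5b, which encodes the catalytic beta subunit of ATP synthase, stood above the other members with a mean of 3163 FPKM and made up 70.2% of the complex V sum and 35.4% of the sum over all members. It lies at chr10:128083273-128090391 (GRCm38, plus strand, GENCODE), and the annotation places a small nucleolar RNA gene, Snord59a, and Mir677 inside it. How reads of these short genes were counted was not given in the sources used here, and sums are therefore also given without it. After Atp5b came Cox7b with a mean of 402 FPKM and Cox6a1. At the lower end of each complex were Ndufa11 with 2.84 FPKM, Sdhaf1 with 2.99, Uqcrc1 with 19.1, Cox6b2 with 3.68 and Atp5sl with 3.59.

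Summed over the 81 genes, thalamus positive libraries were the lowest of the series. Their sums were 5237, 5161, 4398 and 4609 FPKM in mice 1 to 4. Thalamus negative libraries gave 7113, 8347, 9991 and 9032 FPKM, spinal cord positive ones 10418, 10738, 10300.0 and 9052, and spinal cord negative ones 15759, 10886, 11038 and 11098. The 4 groups formed separate ranges, except that mouse 3 of thalamus negative lay above the lowest spinal cord positive sum. Group means were 4851 ± 412, 8621 ± 1210, 10127 ± 740 and 12195 ± 2378 FPKM in the order thalamus positive, thalamus negative, spinal cord positive and spinal cord negative (SD, n = 4). Gene by gene, thalamus positive had the lowest group mean for 72 of the 81 members, and spinal cord negative had the highest for 48, spinal cord positive for 25 and thalamus negative for 8. In 15 members all 4 thalamus positive values lay below the other 12 libraries, which held for 3.99% of all features tested.

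**Figure D1:**
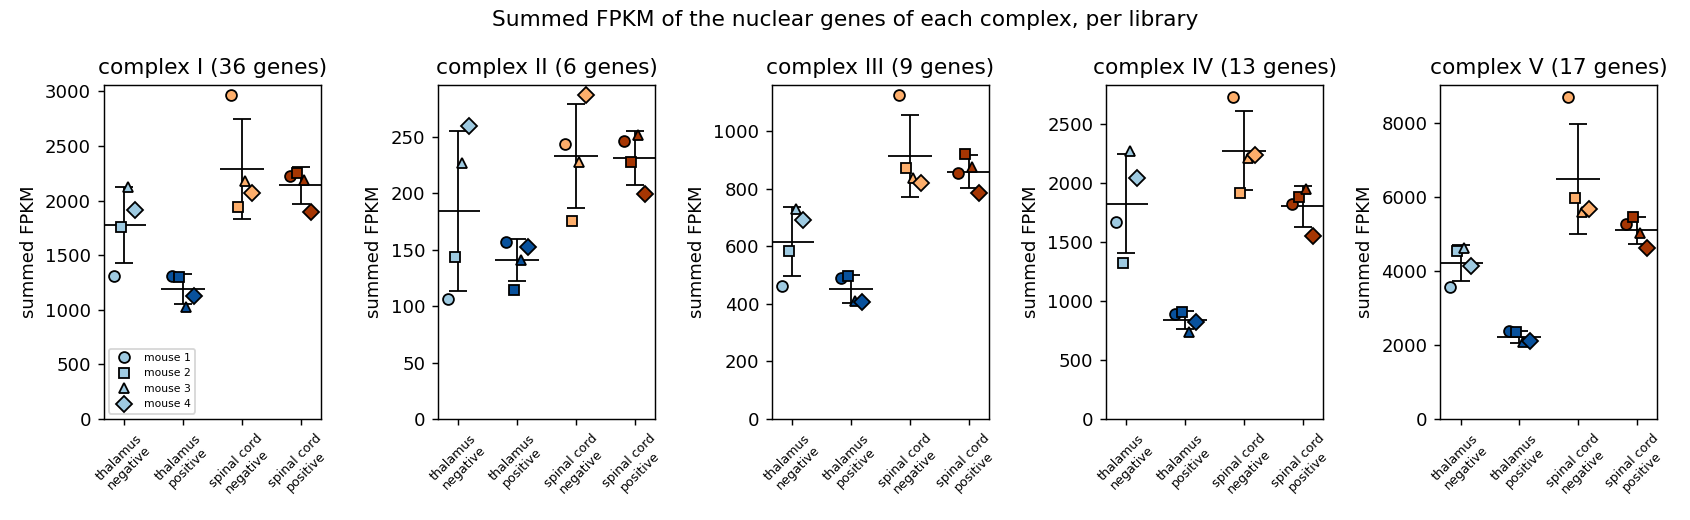
Summed FPKM (vertical axes, from 0) of the nuclear genes of each complex in every library; symbols are mice 1 to 4, colours the 4 groups, long bars the group mean and error bars the SD. Thalamus positive libraries had the lowest group mean for each complex, and mouse 1 of spinal cord negative lay highest for complexes I, III, IV and V.

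The step between the regions was seen in the sum of every complex in positive libraries. Spinal cord positive exceeded thalamus positive 1.80-fold in the sum of complex I, 1.64-fold for complex II, 1.90-fold for complex III, 2.15-fold for complex IV and 2.29-fold for complex V, and 2.09-fold over all members or 1.94-fold without Atp5b. Thalamus negative exceeded thalamus positive 2.17-fold for complex IV and 1.89-fold for complex V, and 1.49-, 1.31- and 1.37-fold for complexes I, II and III. Differences between complexes were not tested.

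The groups also differed in how far their libraries spread. The median coefficient of variation of a member was 12.7% in spinal cord positive and 16.7% in thalamus positive libraries, against 29.3% and 32.8% in the negative libraries of the same regions. In spinal cord negative mouse 1 stood apart: its library was the highest of its group for 54 of the 81 genes, and its members lay a median 0.73 above their gene means on the log2 scale, while all tested features lay at -0.04. In thalamus negative the library of mouse 1 was the lowest for 41 members, with a median of -0.36, while all tested features lay at -0.10. Across the 16 libraries the median pairwise Pearson correlation between members was 0.57, and after removing the group means it was 0.35. These are descriptions over libraries that share a normalization, and they carry no test.

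**Figure D2:**
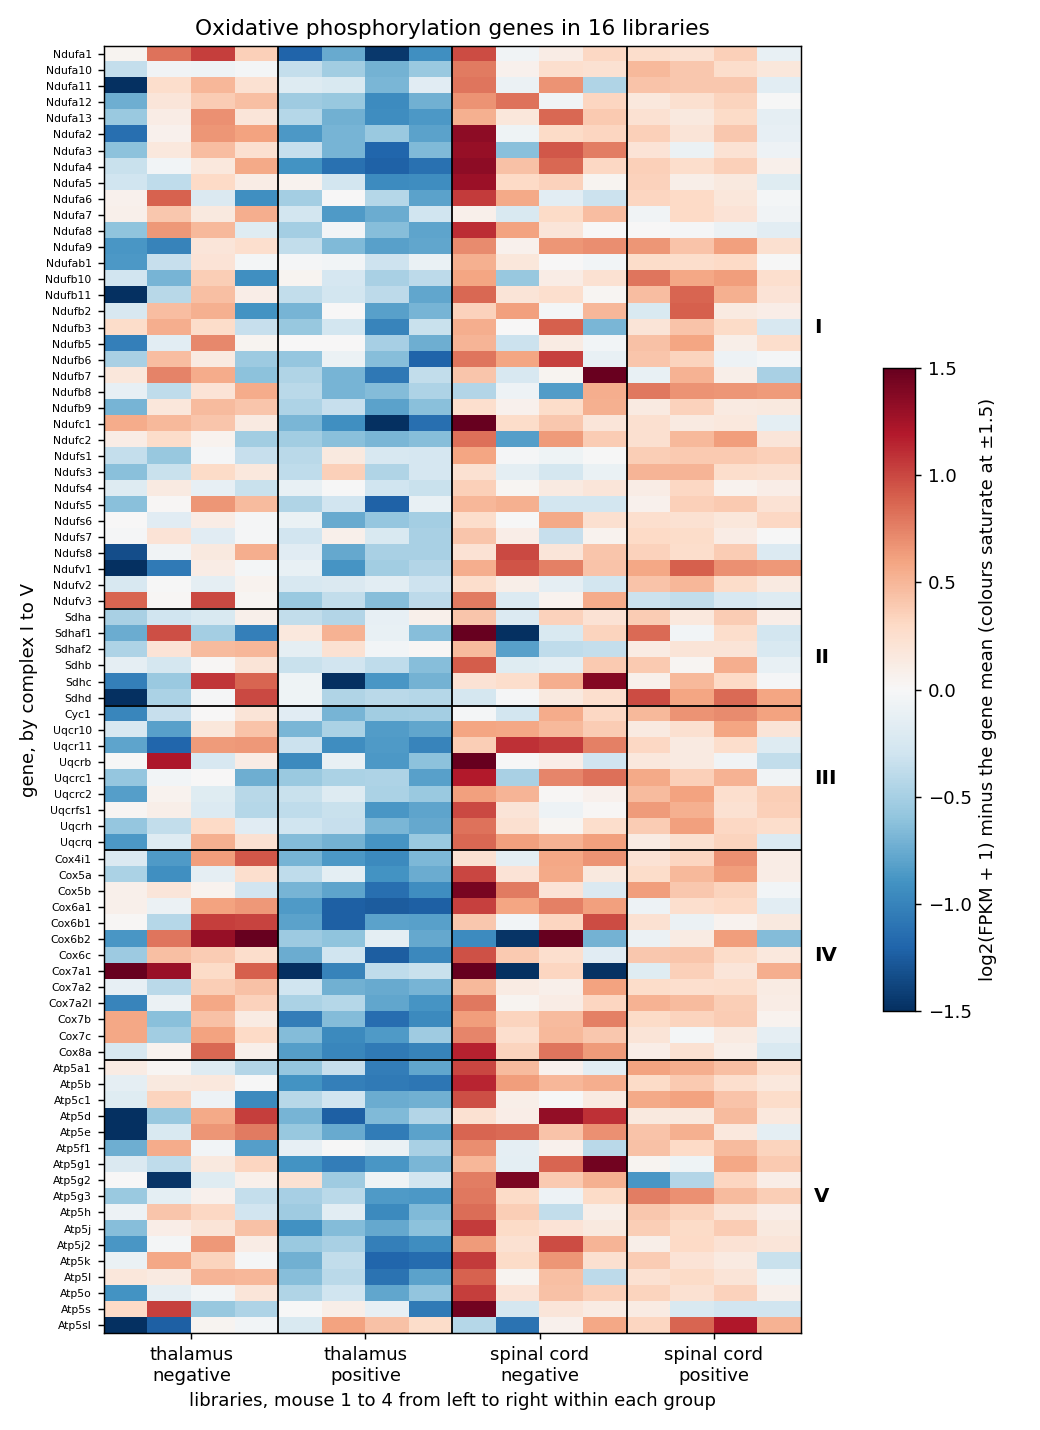
Heat map of 80 of the 81 genes (rows, by complex I to V) in the 16 libraries (columns, mice 1 to 4 within each group); colour is log2(FPKM + 1) minus the gene's mean over the libraries. The thalamus positive columns are blue for most rows, and the first spinal cord negative column, mouse 1, is the reddest.

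Between the regions, the members called in reporter-positive astrocytes were all higher in the spinal cord than in the thalamus. Of the 81 members, 33 rose and 0 fell at a Benjamini-Hochberg adjusted p under 0.05 in limma, fitted to log2(FPKM + 1) over all features. That is 40.7% of the members, where 6.1% of all 16340 features were called in either direction, 4.22% higher and 1.88% lower. The median log2 change of the members was 0.87, from -0.06 for Atp5g2 to 1.35 for Ndufa4, while the median of all features was -0.0014. The change was above 0 for 80 members, and spinal cord was higher in 4 of 4 mice for 75. In 65 members, or 80.2%, every spinal cord positive value lay above every thalamus positive value. This held for 15.5% of all features and 19.1% of protein-coding ones. Of protein-coding features, 5.17% were called higher and 1.89% lower, and their median change was 0.048. The mitochondrial share also differed, at 51.3% to 56.7% in thalamus positive and 43.7% to 49.2% in spinal cord positive libraries. Its part in the result was not tested. With the libraries rescaled to 1 sum without mitochondrial features, 21 members rose and 0 fell, against 5.25% of all features. The members' median was then 0.73 and that of all features -0.11. The count of members called depended on the libraries. Without mouse 1 it was 30, against 5.16% of all features. Without mouse 3, 3 members and 2.27% of all features were called, while 79 of 81 changes stayed above 0 with a median of 0.79. Without mouse 2 or mouse 4 the count was 11, against 2.8% and 2.72% of all features. Without the spinal cord positive library of mouse 1, 2 or 3 it was 17 to 20, against 3.73% to 4.1%. Without the thalamus positive one of mouse 3 or 4 it was 16 or 17, against 3.99% and 3.9%.

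Complex V held the member with the lowest adjusted p. Atp5b lay at 1552, 1414, 1387 and 1360 FPKM in thalamus positive libraries of mice 1 to 4 and at 3520, 3772, 3426 and 3227 in spinal cord positive ones. The lowest spinal cord value was thus more than every thalamus value, and the log2 change was 1.29 ± 0.17 (SE, adjusted p = 0.00026, limma). Atp5g3, a c-ring gene, had 154, 163, 120.2 and 119 FPKM in thalamus positive libraries and 371, 351, 301 and 281 in spinal cord positive ones, without overlap (1.23 ± 0.20, adjusted p = 0.0013). Atp5a1, which encodes the alpha subunit that alternates with beta in the catalytic head, rose by 1.15 ± 0.23 (adjusted p = 0.0071). Its locus overlaps Haus1 on the other strand, and since the strand setting of the counting was not given in the sources used here, reads of both genes cannot be told apart. The other complex V genes that rose were Atp5c1, Atp5g1, Atp5j, Atp5j2, Atp5k and Atp5l, so that 9 of 17 were called. The c-ring gene Atp5g2 gave no such step, with 4.13, 2.02, 3.18 and 2.62 FPKM in thalamus positive and 1.40, 2.23, 4.50 and 3.71 in spinal cord positive libraries (-0.06 ± 0.36, adjusted p = 0.98).

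In complex IV, cytochrome c oxidase, 9 of 13 members rose. Cox6a1, a small nuclear subunit that surrounds the catalytic core, had 122, 94.2, 92.7 and 94.7 FPKM in thalamus positive and 211, 266, 273 and 199 in spinal cord positive libraries. The groups did not overlap (1.22 ± 0.19, adjusted p = 0.0011). Cox8a lay at 101, 90.6, 85.9 and 89.1 against 193, 210.1, 192 and 153 FPKM (1.01 ± 0.22, adjusted p = 0.012). Cox4i1, Cox5b, Cox6c, Cox7a2, Cox7a2l, Cox7b and Cox7c also rose. Cox4i1 overlaps Emc8 and the read-through model Gm20388, and its call, at an adjusted p of 0.048, was near the threshold. Cox5a, which sits at the matrix face of the enzyme, had 33.8, 39.9, 23.2 and 26.1 against 53.7, 62.1, 69.0 and 48.0 FPKM, without overlap, and just missed the threshold (0.92 ± 0.26, adjusted p = 0.052).

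In complex I, NADH dehydrogenase, 10 of 36 members rose. Ndufa4 had the largest change of all members, from 82.7, 70.6, 65.9 and 70.7 FPKM in thalamus positive to 197, 186, 198 and 163 in spinal cord positive libraries (1.35 ± 0.22, adjusted p = 0.0017). Ndufa1, a small membrane-arm subunit encoded on the X chromosome, had 15.5, 21.6, 12.9 and 19.2 FPKM against 44.6, 43.7, 47.7 and 34.2 (1.26 ± 0.26, adjusted p = 0.0073). Ndufb8, another membrane-arm subunit whose level is commonly used as a readout of complex I assembly, had 48.4, 39.2, 40.4 and 46.3 against 112, 102, 102 and 100.1 FPKM (1.24 ± 0.25, adjusted p = 0.0077). All 3 genes separated the groups fully. Ndufb8 shares its strand with the overlapping model Gm20538, so its value may hold reads of both. Ndufa9, Ndufa10, Ndufa13, Ndufc1, Ndufs6 and Ndufv2 were also among those that rose. The electron-transfer core subunits Ndufs1 and Ndufv1 did not pass, with 0.56 ± 0.17 (adjusted p = 0.078) and 1.19 ± 0.43 (adjusted p = 0.13).

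Complex III added 5 of 9 members. Cyc1, the cytochrome c1 that hands electrons to cytochrome c, had 62.5, 43, 48.8 and 49.1 FPKM in thalamus positive and 99.1, 114, 116 and 108 in spinal cord positive libraries (1.10 ± 0.24, adjusted p = 0.011). Uqcrfs1, the Rieske iron-sulfur protein, rose by 1.03 ± 0.22 (adjusted p = 0.012), and Uqcrc2, Uqcrh and Uqcr10 rose too. Complex II, succinate dehydrogenase, had 0 of 6 members called. Its flavoprotein Sdha had 62.5, 59.3, 74.3 and 85.4 against 105, 90.3, 106 and 86.5 FPKM, separated by a narrow gap (0.47 with an interval of 0.13 to 0.81, adjusted p = 0.15). Its iron-sulfur subunit Sdhb had a change of 0.62 with an interval of 0.17 to 1.08 (adjusted p = 0.15). Both 95% intervals lay above 0, so the missed threshold does not show equal levels.

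The astrocyte markers moved with this comparison. Of the 10 markers, 6 were higher in spinal cord positive libraries and 1 was lower. Atp1b2, a subunit of the sodium pump, rose by 1.54 ± 0.19, Aldoc, a glycolytic aldolase, by 1.52 ± 0.21 and Aqp4, the water channel of astrocyte endfeet, by 1.39 ± 0.19, while the glutamate transporter Slc1a3 fell by 1.56 ± 0.18 (limma, each with an adjusted p of at most 0.00042). Among the 12 oligodendrocyte markers 1 was higher, and among the 7 neuron markers tested 0 were called. The neuron marker sum was small in both groups, at 12.0 to 18.4 FPKM in thalamus positive and 21.9 to 30.7 in spinal cord positive libraries. The part of these differences in the members' values was not tested.

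**Figure D3:**
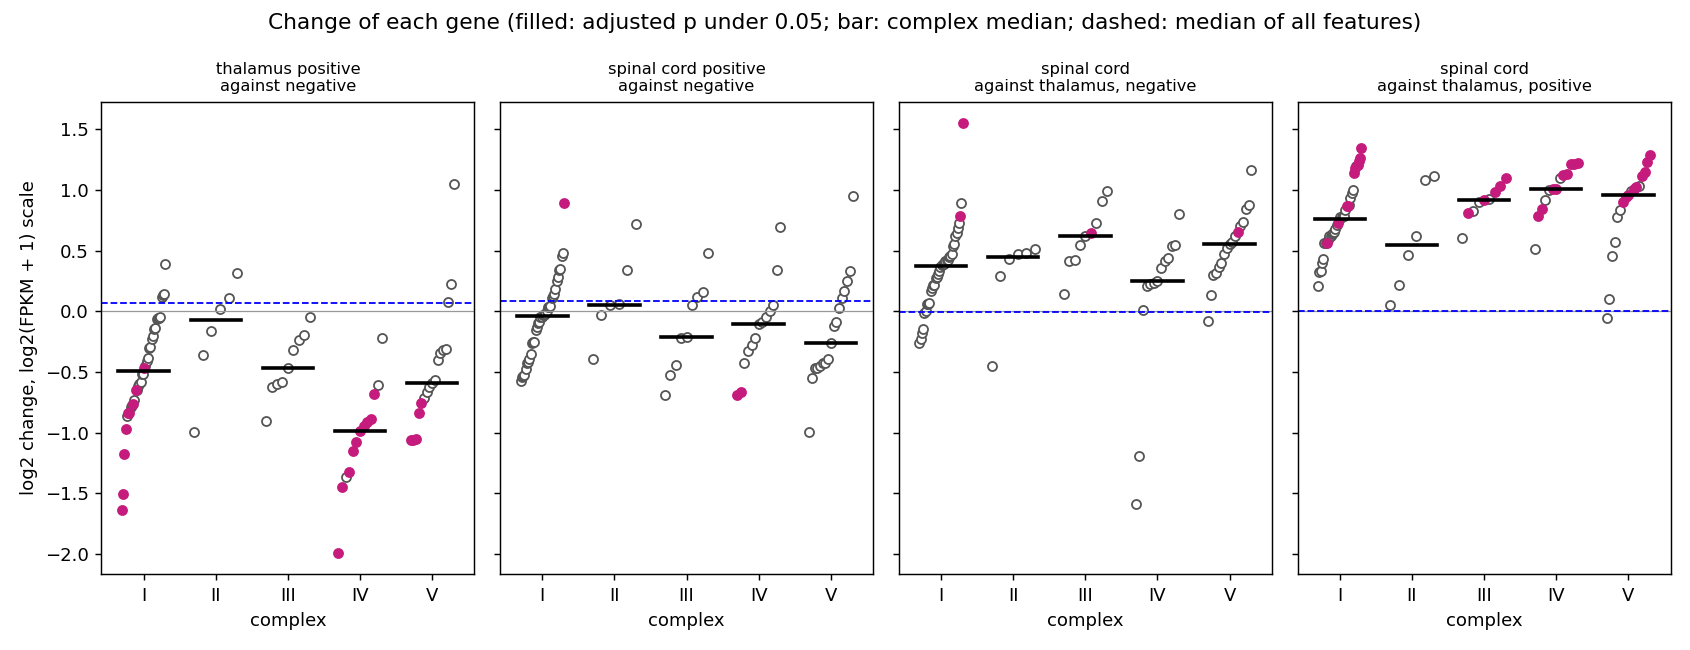
Log2 change of each gene (points, log2(FPKM + 1) scale on the vertical axis) by complex in 4 comparisons; filled points have a limma adjusted p under 0.05, black bars are complex medians and the dashed line is the median of all 16340 features. Filled points stand above 0 in the comparison of positive libraries between regions (33) and below 0 between the thalamus gates (24).

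The start regions of members that rose together are shown next, since the nuclear genes of this chain are known for shared promoter motifs. Windows of 300 bases, from 250 before to 50 after the start of the transcript, were taken from RefSeq (GRCm38.p6), and 66 of the 81 members had one. Capitals mark matches to 4 motifs searched on both strands: GCGCATGCG for NRF1, CCGGAAG for ETS factors including GABP, AAGATGGCG for YY1 and AAGGTCA for the estrogen-related receptors. The 5 genes printed rose in the comparison above and hold at least 1 match each, and they were chosen after the matches were seen. Cox6a1 holds an NRF1 and an ETS match (chr5:115348909-115349208, minus strand). Atp5k holds NRF1, ETS and ERR matches (chr5:108434350-108434649, minus strand). Cox8a holds 2 ETS matches (chr19:7217567-7217866, minus strand), Ndufc1 a YY1 match (chr3:51408906-51409205, minus strand) and Atp5g3 an ERR match (chr2:73911277-73911576, minus strand).
Cox6a1: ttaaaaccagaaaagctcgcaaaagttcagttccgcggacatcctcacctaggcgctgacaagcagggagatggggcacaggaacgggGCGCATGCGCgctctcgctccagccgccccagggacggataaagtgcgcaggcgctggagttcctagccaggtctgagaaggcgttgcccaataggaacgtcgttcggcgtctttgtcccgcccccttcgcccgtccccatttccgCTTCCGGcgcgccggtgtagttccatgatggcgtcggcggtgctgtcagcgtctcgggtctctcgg
Atp5k: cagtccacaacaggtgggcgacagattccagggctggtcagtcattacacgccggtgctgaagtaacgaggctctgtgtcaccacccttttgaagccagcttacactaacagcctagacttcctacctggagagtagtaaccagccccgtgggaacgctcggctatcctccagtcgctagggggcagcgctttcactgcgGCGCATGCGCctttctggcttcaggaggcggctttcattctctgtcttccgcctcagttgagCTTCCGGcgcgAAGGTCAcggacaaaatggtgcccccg
Cox8a: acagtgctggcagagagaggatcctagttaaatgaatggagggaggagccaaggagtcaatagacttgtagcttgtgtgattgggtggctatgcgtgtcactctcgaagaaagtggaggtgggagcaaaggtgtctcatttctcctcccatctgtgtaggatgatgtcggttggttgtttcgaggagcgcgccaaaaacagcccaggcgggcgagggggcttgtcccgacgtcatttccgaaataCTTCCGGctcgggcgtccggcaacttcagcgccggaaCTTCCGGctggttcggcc
Ndufc1: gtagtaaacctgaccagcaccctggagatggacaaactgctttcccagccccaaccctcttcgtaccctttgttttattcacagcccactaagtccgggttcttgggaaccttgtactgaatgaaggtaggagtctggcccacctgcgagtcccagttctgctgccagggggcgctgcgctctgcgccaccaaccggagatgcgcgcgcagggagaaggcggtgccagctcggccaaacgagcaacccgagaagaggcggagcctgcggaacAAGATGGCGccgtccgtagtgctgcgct
Atp5g3: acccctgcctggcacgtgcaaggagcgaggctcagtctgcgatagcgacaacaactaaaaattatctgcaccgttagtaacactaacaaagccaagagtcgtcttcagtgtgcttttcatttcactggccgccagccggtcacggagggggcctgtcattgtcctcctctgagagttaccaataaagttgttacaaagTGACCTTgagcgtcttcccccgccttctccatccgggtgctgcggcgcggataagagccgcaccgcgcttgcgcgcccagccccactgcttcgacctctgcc

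For each gene 1 window was searched. A member's window was the one nearest the annotated gene start, while in the background shares it was the first by position. The shares are therefore not fully like for like. The exact letters of NRF1 occurred in 8 of the 66 member windows, or 12.1%. They occurred in 1.77% of the windows of 27025 genes and in 3.55% of those of the 10204 tested genes. The ETS letters occurred in 17, or 25.8%, against 9.08% and 17.1%. The YY1 letters occurred in 6, or 9.09%, against 1.49% and 3.07%, and 5 of these 6 were complex I genes. The ERR letters occurred in 7, or 10.6%, against 4.66% and 3.05%. In all, 30 of the 66 windows held at least 1 of the motifs, and that of Atp5b, the most abundant member, held 0. A match describes these letters only, and no 2 different motifs overlap in the 5 windows printed, while the NRF1 letters match on both strands at nearly the same bases.

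Within the thalamus, the members called were all lower in reporter-positive than in reporter-negative astrocytes. Of the 81, 24 fell and 0 rose in limma, which is 29.6%, while 25.2% of all features were called, 13.6% as lower and 11.6% as higher. The share in either direction was thus close to the background, and the calls differed from it in direction. Of the 81, 71 had a change below 0, and the median of the members was -0.58 against 0.06 for all features. All members are protein-coding, and protein-coding features leaned lower too, with 16.9% called lower, 7.77% higher and a median of -0.083. The groups did not overlap, positive below negative, for 18 members (22.2%, against 14.2% of all features and 17.6% of protein-coding ones). Complex IV had 10 of 13 members lower, complex I 9 of 36, complex V 5 of 17, and complexes II and III had 0 of 6 and 0 of 9. Without mouse 3 the count was 7, where 14% of all features were called, a larger share. Without the thalamus positive library of mouse 3 alone it was 13, against 18.5% of all features. Without the thalamus negative one the count was 17, with 16 lower and 1 higher, against 22.5%. With both negative libraries of mouse 1 left out it was 40, against 33.3% of all features.

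In complex IV, Cox6a1 had 235, 208, 338 and 348 FPKM in thalamus negative libraries, each above the 92.7 to 122 of the positive ones, and fell by 1.45 ± 0.19 (adjusted p = 8.3e-05, limma). Cox8a had 152, 186, 327 and 190.0 FPKM in negative libraries against 85.9 to 101 in positive ones, and fell by 1.15 ± 0.22 (adjusted p = 0.0017). Cox6b1, which bridges the monomers of the oxidase dimer, had 63.3, 46.4, 129 and 127 FPKM in negative and 35.3, 26.2, 35.4 and 35 in positive libraries, and fell by 1.32 ± 0.30 (adjusted p = 0.0051). Cox7b, the most abundant member of the complex, had 554, 239, 503 and 403 FPKM in negative and 179.6, 235, 167 and 190.0 in positive libraries, so that mouse 2 lay near its own positive value. The muscle-type isoform Cox7a1 had 19.2, 11.4, 5.12 and 8.37 FPKM in negative and 0.467, 1.53, 2.87 and 2.99 in positive libraries. It fell by 1.99 ± 0.67 (adjusted p = 0.043, limma), which became 0.062 with the mouse as a replicate block. In all, 16 of 22 alternative fits lost the Cox7a1 call. Cox4i1, Cox5b, Cox6c, Cox7a2 and Cox7c made up the rest.

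In complex I, Ndufa1 had 38, 65.9, 76.8 and 47.7 FPKM in thalamus negative libraries, above the 12.9 to 21.6 of the positive ones, and fell by 1.64 ± 0.26 (adjusted p = 0.00035). Ndufc1, whose window is printed above, had 98.4, 93.5, 89.7 and 73.3 FPKM in negative and 41, 34.7, 19.98 and 29.9 in positive libraries, and fell by 1.51 ± 0.28 (adjusted p = 0.0015). Ndufa4 had 122, 150, 172 and 229 against 65.9 to 82.7 FPKM, and fell by 1.17 ± 0.22 (adjusted p = 0.0016). Ndufa7, Ndufa12, Ndufa13, Ndufb9, Ndufs6 and Ndufv3 were the other members called. The core subunit Ndufs1 had a change of 0.14 with an interval of -0.21 to 0.48, and Ndufv1 of 0.39 with an interval of -0.44 to 1.23, whose 4.90 to 36.2 FPKM in negative libraries spread more widely than its 17.7 to 31 in positive ones.

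In complex V, Atp5b had 2633, 3186, 3222 and 2875 FPKM in thalamus negative libraries, all above the highest positive value of 1552, and fell by 1.06 ± 0.17 (adjusted p = 0.00047). Atp5g1, Atp5j, Atp5k and Atp5l fell too. Complex II stayed near 0 for Sdha, with 57.3, 65.8, 69.2 and 85.3 FPKM in negative and 62.5, 59.3, 74.3 and 85.4 in positive libraries (0.02, interval -0.32 to 0.36). Cyc1 of complex III had 35.4, 55.2, 70.8 and 80.8 against 43 to 62.5 FPKM, which overlapped (-0.20, interval -0.66 to 0.27). The oligodendrocyte and ependymal marker sums given above moved with this comparison, since 11 of 12 and 10 of 10 of these markers were lower in positive libraries, and so did the mitochondrial share, at 56.7% to 73.9% in negative and 51.3% to 56.7% in positive libraries. Their part in the result was not tested. With the libraries rescaled to 1 sum without mitochondrial features, 13 members fell and 1 rose, while 27.8% of all features were called, a larger share. The median of the members was then -0.34, while that of all features moved to 0.26.

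**Figure D4:**
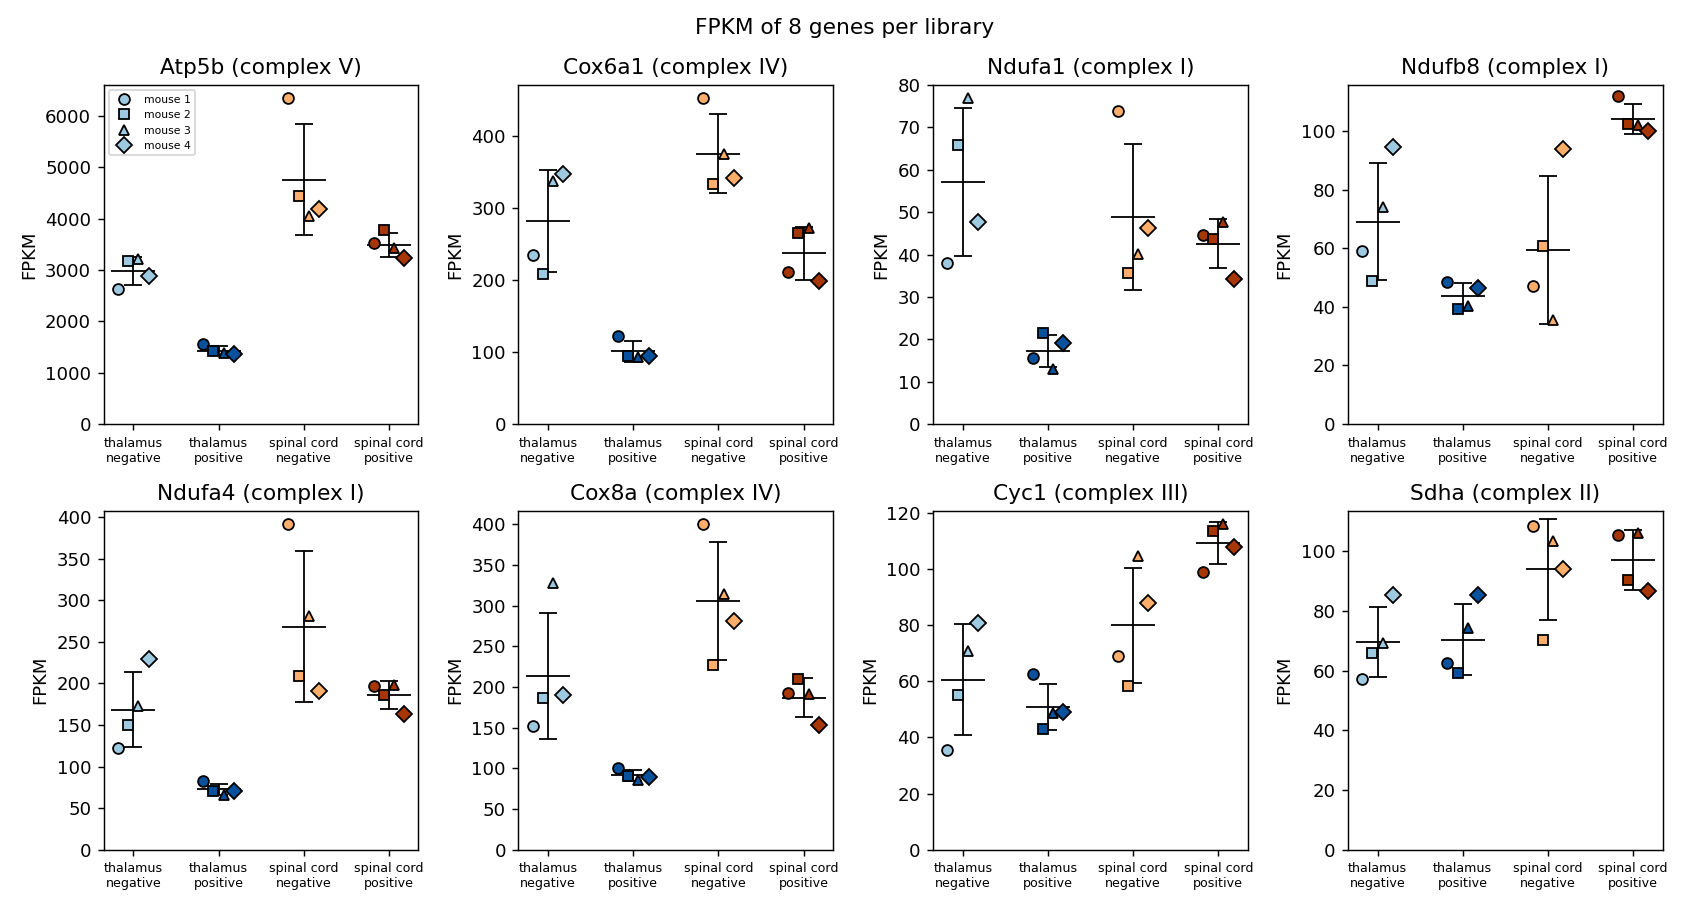
FPKM (vertical axes, from 0) of 8 genes in every library; symbols are mice 1 to 4, long bars group means and error bars the SD. Atp5b, Cox6a1, Ndufa1, Ndufa4 and Cox8a have their 4 thalamus positive values below all values of the other groups, whereas Sdha overlaps between the thalamus gates.

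In the spinal cord the gates differed in few members. Of the 81, 1 rose and 2 fell, or 3.7%, where 19.6% of all features were called, 9.04% as higher and 10.5% as lower. The median change was -0.09, with 48 members below 0 and 33 above. Ndufb8 was the member that rose, with 47.0, 60.7, 35.5 and 93.9 FPKM in spinal cord negative and 100.1 to 112 in positive libraries (0.89 ± 0.25, adjusted p = 0.022). Cox6a1 fell by 0.67 ± 0.19 (adjusted p = 0.024) from 453, 334, 375 and 342 FPKM in negative libraries. Cox8a fell by 0.69 ± 0.22 (adjusted p = 0.041) from 401, 227, 315 and 281 FPKM. The mouse as a replicate block ended the Cox8a call at an adjusted p of 0.051, and 15 of 22 alternative fits lost it. The calls of Cox6a1 and Ndufb8 were lost in 6 and 7 of 22. All 3 separated the gates fully. Atp5b had 6356, 4440, 4054 and 4191 FPKM in negative libraries, of which mouse 1 stood alone, and did not pass (-0.43 ± 0.17, adjusted p = 0.095). Without mouse 1 or 3, 0 members were called, against 16.6% and 11.7% of all features. The same held without the spinal cord positive library of mouse 1, against 15.3%. The count was 1 without mouse 2 or 4, against 14.2% and 12.7%. It was also 1 without the negative library of mouse 1 or 3 or the positive one of mouse 4, against 17.8%, 17.7% and 14.4%.

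The oligodendrocyte markers were all 12 lower in spinal cord positive libraries and the ependymal ones all 10. Of the 10 astrocyte markers 6 were higher and 0 lower there, and of the 10 endothelial and mural ones 6 were lower. The part of these differences in the members' values was not tested. The difference between the regions in the gate effect was fitted directly as spinal cord minus thalamus. In it 2 members were called, both positive, which is 2.47% of the members against 2.56% of all features, 1.13% in that direction and 1.43% in the other. The median of the members was 0.47, with 74 of 81 above 0, and the median of all features was 0.02. The markers of other cell types differed in this comparison too: 8 of the 12 oligodendrocyte markers were lower, with a median of -2.15, and 5 of the 10 ependymal ones higher, with a median of 2.0. Their part in the members' values was not tested. Ndufa1 gave 1.49 ± 0.36 (adjusted p = 0.042), with its fall in the thalamus and a difference of -0.15 ± 0.26 in the spinal cord. Ndufb8 gave 1.51 ± 0.36 (adjusted p = 0.039), with -0.61 ± 0.25 for the thalamus gates and the rise given above for those of the spinal cord.

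These 2 calls changed with the fit. With the mouse as a replicate block, which pairs the 4 libraries of an animal, 1 member was called and the adjusted p of Ndufa1 was 0.088. Leaving out single mice or libraries gave 0 to 4 members. The count was 0 without mouse 2, 3 or 4, against 0.424%, 0.472% and 0.477% of all features. It was also 0 in most cases where 1 library was left out. Among them were each of the 4 spinal cord positive ones, against 1.5% to 1.84%. Without mouse 1 the count was 3, against 1.85%. With both negative libraries of mouse 1 left out, 13 members were called, all positive, against 4.99% of all features. For most members a regional difference in the gate effect was therefore not detected at this number of libraries.

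Between reporter-negative astrocytes of the regions, few members were called. Of the 81, 4 were higher in spinal cord negative than in thalamus negative libraries and 0 were lower, or 4.94%, against 9.81% of all features, 5.27% higher and 4.54% lower. The share called higher was thus no larger than that of all features. The median change was 0.42, with 71 of 81 above 0. The markers of other cell types moved with this comparison: 12 of 12 oligodendrocyte markers were higher in spinal cord negative libraries, with a median of 2.27, 5 of 6 precursor markers were higher and 8 of 10 ependymal ones lower. Their part in the members' values was not tested. Atp5b rose by 0.66 ± 0.17 (adjusted p = 0.024), and its groups did not overlap. Ndufv1, the flavoprotein that takes electrons from NADH, had 4.90, 15.5, 36.2 and 32.7 FPKM in thalamus negative and 49.4, 65.2, 57.0 and 45.4 in spinal cord negative libraries (1.55 ± 0.43, adjusted p = 0.032). Uqcrc2, a core protein of complex III, rose by 0.65 ± 0.19 (adjusted p = 0.049). With the negative libraries of mouse 1 left out, 1 member was higher and 2 were lower, against 11.1% of all features. The members' median was then 0.20, with 53 above 0. With mouse 3 left out 0 members were called, and with mouse 2 left out 1, against 6.25% and 5.99%. Without mouse 1 the 1 member called was lower in the spinal cord, against 7.92%. Without its spinal cord library alone 1 was higher and 1 lower, against 9.95%. The count was 2 without mouse 1 or 2 of the thalamus group alone, against 10.6% and 9.27%. It was 9 or 10 without mouse 3 or 4 of that group alone, against 10.9% and 10.1% of all features. In a fit of these 2 groups alone 0 members were called, against 2.99% of all features.

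Other genes of the same organelle were read from lists. The 17 genes of the tricarboxylic acid cycle and pyruvate dehydrogenase supply the chain with electrons. Of these, 8 were higher and 0 lower in spinal cord positive than in thalamus positive libraries, with a median of 0.73. The share of all features called there was 6.1%. Idh3b, a subunit of the NAD-linked isocitrate dehydrogenase, rose by 1.18 ± 0.19 (adjusted p = 0.0014) and Ogdh, the first enzyme of the oxoglutarate dehydrogenase complex, by 0.93 ± 0.14 (adjusted p = 0.00097). Of 6 carriers of nucleotides and phosphate, 5 rose. Slc25a5 and Slc25a4, which exchange ADP for ATP across the inner membrane, rose by 1.03 ± 0.17 and 1.02 ± 0.26. Of 15 genes of mobile electron carriers and coenzyme Q, 2 rose, Cycs, which encodes cytochrome c, by 1.05 ± 0.18 and Etfa, which takes electrons from fatty acid oxidation, by 0.87 ± 0.21.

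Few genes that build the complexes were called in the same comparison, where 6.1% of all features were, although most had changes above 0. Above 0 lay 12 of 14 assembly factors for complex I and 4 of 6 for complex III, with medians of 0.36 and 0.10. For complexes IV and V it was 15 of 20 and 5 of 5, with medians of 0.22 and 0.25. Of the mitochondrial ribosomal proteins, 63 of 74 lay above 0. Of the assembly factors, 0 of 14 for complex I, 0 of 6 for complex III, 1 of 20 for complex IV and 0 of 5 for complex V were called, the 1 being Cox14, which rose by 1.09 ± 0.23. Of 74 mitochondrial ribosomal proteins, 2 rose, with a median of 0.36, Mrps33 by 0.98 ± 0.19 and Mrpl42 by 0.92 ± 0.24. Of 13 regulators of mitochondrial biogenesis, 0 were called, with a median of 0.11.

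**Figure D5:**
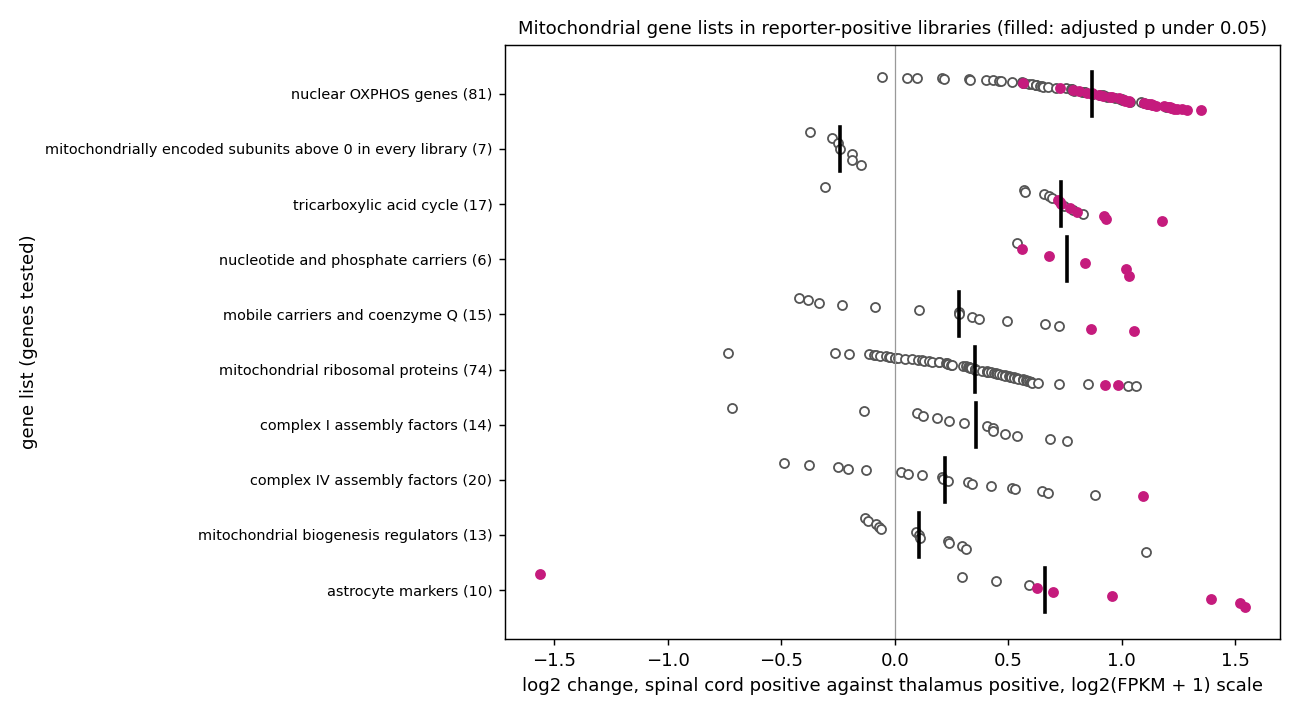
Log2 change between spinal cord positive and thalamus positive libraries (horizontal axis, log2(FPKM + 1) scale) for the 81 nuclear genes and 9 other lists; filled points have a limma adjusted p under 0.05 and black bars are list medians. The nuclear genes, the tricarboxylic acid cycle and the carriers lie mostly above 0, and the 7 mitochondrially encoded subunits shown lie below 0.

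The subunits encoded by mitochondrial DNA were read in the same libraries. Of the 13, mt-Co1, mt-Nd4, mt-Nd4l, mt-Cytb, mt-Nd5 and mt-Nd6 were listed at 0 in some libraries while other libraries gave high values for most of them, so no fold is given for these. The 7 with values above 0 in every library had changes of -0.37 to -0.15 between spinal cord positive and thalamus positive libraries, and 0 were called. Between the thalamus gates 4 of these 7 fell in positive libraries, mt-Nd2 by 1.40 ± 0.44, mt-Nd1 by 1.12 ± 0.38, mt-Atp6 by 1.04 ± 0.34 and mt-Co2 by 0.92 ± 0.30 (limma, adjusted p from 0.031 to 0.046). In that comparison 25.2% of all features were called, 13.6% as lower and 11.6% as higher. Of the 17 tricarboxylic acid cycle genes 7 fell and 0 rose, led by Idh2 with a fall by 1.02 ± 0.30 and Idh3g by 0.82 ± 0.22. Of the carriers, Slc25a4 and Vdac1 fell, by 1.11 ± 0.26 and 0.86 ± 0.16. Atpif1, the inhibitor of ATP synthase, fell by 1.40 ± 0.26 (adjusted p = 0.0014), and Usmg5, a small protein of the synthase dimer, fell by 0.68 ± 0.21. Of 20 complex IV assembly factors 3 rose and 1 fell, of 6 for complex III 1 rose and 0 fell, and of 14 for complex I 0 rose and 2 fell, with Cox18, Coa4 and Cox11 of complex IV rising by 1.49 ± 0.48, 1.37 ± 0.33 and 1.08 ± 0.29, Ttc19 of complex III by 1.02 ± 0.29, and Ndufaf2 and Ndufaf3 of complex I both falling by 1.14. Of 74 mitochondrial ribosomal proteins 1 rose and 6 fell, a smaller share than among all features. Of 13 biogenesis regulators 1 rose, Polrmt, the mitochondrial RNA polymerase, by 1.5 ± 0.30, and 1 fell. The latter was Gabpa, the DNA-binding subunit of GABP, by 0.60 ± 0.18. Gabpa overlaps the member Atp5j on the other strand, and with the strand setting not given, reads of both genes cannot be told apart.

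The members are short transcripts, with a median length of 608 bases against 1447 for all protein-coding features tested, and FPKM divides by that length. With the trend of each library on transcript length removed, 19 members rose and 0 fell between the positive libraries of the regions. Their median was 0.68, and 5.72% of all features were called. Between the thalamus gates 15 members then fell and 1 rose, while 26.2% of all features were called, a larger share. The members' median was -0.35 against -0.58 before, and that of all features was 0.16. The authors' deposited table of 444 features that differed between positive and negative libraries held 0 of the 81 members. The largest adjusted p in that table was 0.0098, from the authors' own test of positive against negative. The calls above came from limma within each region and at a less strict threshold. The absence of members from the table is therefore not like for like with these calls. In all, 36 of the 81 members overlap another annotated gene and 25 of them a protein-coding one, and their values are uncertain to that extent.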

How the data were processed

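RNA was read in 16 libraries, 4 in each of 4 groups, from total RNA isolated with a Qiagen micro kit and a NuGEN library kit, as the labels' protocols state. The build was GRCm38, per the submitters' processing notes, which list TopHat2 2.0.11 and Bowtie2 2.2.3 without their roles, and further FastQC, DESeq2, Cufflinks, Cuffnorm and HTSeq 0.6.1p1. The values used are FPKM that the authors deposited for 39171 features. Sequencing depth is unknown from such values, so no counting interval is given, and the handling of multiply mapped reads was not given in the sources used here. A deposited comparison table was used here only for its gene names and its largest adjusted p. It gives the authors' group means in FPKM, a p-value and its adjustment, a score of the test, a log2 fold change and a mean signal.

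Groups were taken from the labels, and replicates of a group came from 4 mice. The 16340 features that reached 1 FPKM in 4 or more libraries entered limma 3.58.1 (R 4.3.3). The model was fitted to log2(FPKM + 1), a scale that understates changes of low genes, with a coefficient for each group, all 16 libraries and a prior that follows the mean level. P-values were adjusted by Benjamini-Hochberg over all these features in each of 5 comparisons: positive against negative in each region, the difference of these, and the regions against each other within a gate. Intervals are 1.96 SE on each side (95%). The method was tested on simulated data. Comparisons that share a group share its libraries, as do the thalamus gates and the positive libraries between regions.

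Per the labels, a mouse number marks 1 animal, so the numbers pair the libraries. Deviations of libraries from their group mean correlated by 0.036 on average in the 24 pairs of the same mouse (-0.013 to 0.092) and by -0.012 in the 72 other pairs. The alternatives were a pseudocount of 0.1, no filter or 5 FPKM, 2 rescalings, the groups compared alone, the mouse as a block and each mouse or library left out. After seeing the data, 3 were added: both negative libraries of mouse 1 left out, the length trend removed (lowess span 0.3) and protein-coding features only.

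The members, the gene lists and the tests were chosen with earlier results of these data known. Named genes were a fixed set of core subunits and isoforms, the members with the highest and lowest mean of each complex, the 6 called members with the largest change in each direction of a comparison and up to 2 called genes of each list and direction. Other called members are given by name only, and 1 member is counted but not reported here by name. The astrocyte, oligodendrocyte, ependymal, neuron, endothelial and mural, and microglia markers are lists of textbook markers. Gene positions and overlaps come from GENCODE vM21 (GRCm38).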

Additional observations from a re-analysis of the deposited data

Results flagged for a closer look

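In each group of 4 libraries, the highest or lowest value was compared with the nearest of the others by Dixon's gap ratio at its 95% critical value. Of the 148 groups checked for named genes and sums, 13 passed, and chance alone passes about 1 in 20. In spinal cord negative libraries mouse 1 was alone at the top for the sum over all members at 15759 FPKM, for complex V at 8701, and for Atp5b at 6356, Ndufc1 at 205 and Ndufs1 at 31.6 FPKM, and mouse 3 was alone at the top for Cox6b2 at 11.0 FPKM. In thalamus positive libraries mouse 1 was alone at the top for Cox6a1 at 122 and Cox7a2 at 40.6 FPKM, mouse 2 was alone at the bottom for Cox6b1 at 26.2 FPKM, and mouse 3 was alone at the bottom for Ndufa11 at 1.21 FPKM. In spinal cord positive libraries mouse 4 was alone at the bottom for Ndufa11 at 2.2 FPKM and for the sum without Atp5b at 5825 FPKM. In thalamus negative libraries mouse 2 was alone at the top for Sdhaf1 at 5.42 FPKM.

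For 2 genes the positive against negative difference itself differed between the regions in limma, by 1.49 for Ndufa1 and by 1.51 for Ndufb8, on the log2(FPKM + 1) scale and spinal cord minus thalamus. These are 2.47% of the members, against 2.56% of all features called. The call of Ndufa1 was lost in 19 of 29 alternative fits and that of Ndufb8 in 21 of 29.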

How the results depend on the processing

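Leaving out 1 mouse or 1 library gave 3 to 30 members between the positive libraries of the regions (33 in full), 7 to 36 between the thalamus gates (24), 0 to 4 between the spinal cord gates (3), 0 to 4 for the regional difference of the gate effect (2) and 0 to 10 between the negative libraries (4). The shares of all features called were then, in the same order, 2.27% to 5.16%, 14% to 29.6% and 11.7% to 18.3%. For the regional difference and the negative libraries they were 0.424% to 3.8% and 5.69% to 10.9%. Rescaling to 1 sum without mitochondrial features called 21 members between the positive libraries, 14 between the thalamus gates and 1 for the regional difference. All features were called at 5.25%, 27.8% and 2.29%. The thalamus positive sum moved to 5413 FPKM. That scaling moved the median of all features to 0.26 between the thalamus gates and to -0.11 between the positive libraries. With only the groups compared in the fit, 64 members were called between the positive libraries, 6 between the spinal cord gates and 0 between the negative libraries. The shares of all features were 28.3%, 22.8% and 2.99%. Without a filter the regional difference and the negative libraries gave 0 each. Median-of-ratios rescaling gave 1 for the regional difference.

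The mouse as a replicate block gave 1 member for the regional difference and 31 for the positive libraries. For the thalamus gates it gave 24, of which 23 fell and 1 rose. It gave 2 for the spinal cord gates and 4 for the negative libraries. All features were called at 2.1%, 6%, 25.1%, 19.6% and 9.43% in that order. Beside the regional difference, the block ended the calls of Cox7a1 between the thalamus gates and Cox8a between the spinal cord gates among the named genes.

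Leaving out both negative libraries of mouse 1 was added after seeing the data. It gave 40 members between the thalamus gates, against 33.3% of all features, and 13 for the regional difference, against 4.99%. Removing the length trend, also added then, gave 19 between the positive libraries and 16 between the thalamus gates, against 5.72% and 26.2%. It gave 1 for the regional difference and 7 between the negative libraries, against 2.58% and 10%. Protein-coding features alone, added then too, gave 9 between the negative libraries, against 13.2%. Of 37 differences of named genes, 9 kept their call under every alternative and 0 reversed, with 225 of 828 values losing the threshold. The causes were not tested. The 4 libraries a group limit what can be called, and the FPKM give no depth.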
